A study of Mus musculus with 816 samples.

Results

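Arg1, Retnla, Chil3, Mrc1, Mgl2, Clec10a, Ccl17, Ccl22 and Ccl24 are the genes by which a macrophage response to the cytokines IL4 and IL13 is commonly recognised. They were chosen by name, as 9 of the 45581 genes listed for cultured mouse microglia and 9 of the 29858 listed for microglia taken from mice. In the cultures 8 of the 9 passed the filter on low values of more than 5 CPM (reads of the gene per 1000000 mapped reads) in at least 4 cultures. Ccl17 did not pass, and its values are given without a test across genes.

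Transcripts were counted at their 3′ ends in 784 wells of primary microglia, which came from neonatal mouse brain as a commercial product. The wells held 98 pairings of a stimulus with a time point on 10 plates, from 3 lots of cells, sequenced in 21 library pools. Untreated cultures (40 at 24 h, 25 at 72 h) were the controls, and no untreated culture was labelled 4 h. Microglia from 32 C57BL/6 mice formed an LPS experiment and an aging experiment. IL4 (11 cultures at 24 h, 3 at 72 h), IL13 (9 and 6) and IL10 (9 and 6) were each given alone at 0.00005 µg/µl, and 6 cultures received all 3 cytokines for 72 h. Bacterial lipopolysaccharide (LPS) was given at a high dose of 0.0001 µg/µl (LPS_hi) or a low dose of 0.00001 µg/µl (LPS_lo). LPS_lo was given alone (11 cultures at 72 h) and together with IL4, IL13, IL10 or the 3 cytokines (5 cultures each at 72 h), and the labels give no cytokine dose for these mixes with LPS. In the LPS experiment 2-month-old females received 2 mg/kg LPS or PBS into the peritoneum and were taken 4 h later (4 mice each), and in the aging experiment untreated males were 2 months (11 mice) or 22 months old (13 mice). One 72 h culture labelled LPS_hi carried the low dose and was kept as a condition of its own. The cultures at 4 and 24 h came from 2 and 3 lots of cells and all those at 72 h from 1 lot, and no label names separate preparations within a lot, so that p-values in cultures measure mostly the spread between wells.

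IL4 and IL13 bind receptor complexes that share the IL4Rα chain, and the associated JAK kinases activate the transcription factor STAT6. In macrophages this signal switches on arginase, chitinase-like and resistin-like secreted proteins, lectin receptors and chemokines, a program often called alternative activation. IL10 uses another receptor and signals mainly through STAT3, while LPS acts through TLR4 and NF-κB and drives an inflammatory program. Among the genes studied, Arg1 encodes arginase, which breaks down arginine, Retnla encodes the secreted resistin-like molecule alpha, and Chil3 the chitinase-like protein Ym1. Mrc1 encodes the mannose receptor, and Mgl2 and Clec10a encode galactose-type lectins. Ccl17 and Ccl22 encode ligands of the chemokine receptor CCR4, and Ccl24 a ligand of CCR3.

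The genes lie on 7 chromosomes of GRCm38, and all are protein-coding. The lectin genes Mgl2 (chr11:70130329-70137550, plus strand) and Clec10a (chr11:70156197-70170834, plus strand) are neighbours 18647 bases apart, and the chemokine genes Ccl22 (chr8:94745590-94751699, plus strand) and Ccl17 (chr8:94810453-94812036, plus strand) lie 58754 bases apart. The others are Mrc1 (chr2:14229392-14332057, plus strand), Chil3 (chr3:106147554-106167564, minus strand), Ccl24 (chr5:135569937-135573049, minus strand), Arg1 (chr10:24915221-24927484, minus strand) and Retnla (chr16:48842551-48844461, plus strand). Mgl2 and Clec10a are close relatives, as are Chil3 and Chil4, and whether reads were split correctly between such copies could not be checked.

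RefSeq gave promoter sequences for 6 of the 9 genes, and the 250 bases before the RefSeq start were searched for 2 spacings of the palindrome that STAT factors bind. The 10-letter form TTCNNNNGAA, typical of STAT6, was in 5.85% of 32851 mouse promoters, and the 9-letter form TTCNNNGAA in 7.02% (each form reads the same on both strands). The 3 promoters with a match are shown 5′ to 3′ on the strand of the gene (GRCm38.p6), with the matches in capitals, because Retnla and Chil3 had some of the highest rises with IL4 below, whereas Ccl17 did not rise with IL4 at all.
Retnla (chr16:48842359-48842608, plus strand): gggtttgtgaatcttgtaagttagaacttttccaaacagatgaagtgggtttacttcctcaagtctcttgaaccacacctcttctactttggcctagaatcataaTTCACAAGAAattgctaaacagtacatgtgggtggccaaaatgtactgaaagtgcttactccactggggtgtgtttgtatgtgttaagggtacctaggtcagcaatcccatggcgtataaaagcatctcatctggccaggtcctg
Chil3 (chr3:106167565-106167814, minus strand): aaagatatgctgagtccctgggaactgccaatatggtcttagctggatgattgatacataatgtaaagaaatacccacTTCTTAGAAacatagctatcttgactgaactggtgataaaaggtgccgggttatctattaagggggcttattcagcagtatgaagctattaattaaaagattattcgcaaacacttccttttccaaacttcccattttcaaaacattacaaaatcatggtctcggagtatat
Ccl17 (chr8:94810203-94810452, plus strand): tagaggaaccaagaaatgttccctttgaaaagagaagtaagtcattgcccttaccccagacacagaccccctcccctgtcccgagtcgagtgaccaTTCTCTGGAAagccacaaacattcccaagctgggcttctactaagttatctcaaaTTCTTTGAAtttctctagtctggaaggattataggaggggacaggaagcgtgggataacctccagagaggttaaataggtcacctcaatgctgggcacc
Retnla held the 10-letter form at bases -145 to -136 from the start, and Chil3 the 9-letter form at -172 to -164. Ccl17 held both, at -154 to -145 and at -99 to -91, which do not overlap. The windows of Mgl2, Mrc1 and Ccl22 held neither form, and the NF-κB-type motif GGGNNTTTCC, searched on both strands and present in 1.41% of promoters, was in none of the 6. A match is a run of letters and not a shown binding site, and its absence from this window says nothing of the factor.

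Depth, in units of 1000000 mapped reads, ran from 1.00 to 38.2 per culture (median 4.67) and from 2.36 to 7.78 per mouse. The labelled cell type was checked against its markers. Csf1r had a median of 3927 CPM in untreated cultures at 24 h and 19747 CPM in PBS mice. The homeostatic markers Tmem119 and P2ry12 had medians of only 14.6 and 3.49 CPM in these cultures, against 4770 and 757 CPM in PBS mice. Trem2 went the other way, at 807 and 377 CPM. The summed level of 7 perivascular macrophage markers was 567 CPM at the median in these cultures and 59.7 CPM in PBS mice. Among them Ms4a7 (273 and 4.98 CPM) and Pf4 (201 and 12.1 CPM) were higher in culture, whereas Cd163, Lyve1 and F13a1 were lower.

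The cultures with IL4 or IL13, 50 in all, were in 9 of the 21 pools. Those pools stood apart in the wells that received neither cytokine, most clearly for Retnla and Chil3. Retnla was above 0 in 302 of the 321 other cultures of these 9 pools (94.1%, median 6.44 CPM, highest 56.0 CPM). In the 12 pools with no IL4 or IL13 culture it was above 0 in 14 of 413 cultures (3.39%, highest 0.773 CPM). The contrast was also there among untreated wells, with 21 of 24 above 0 in the former pools (median 4.48 CPM) and 0 of 41 in the latter. Chil3 was above 0 in 100 of 321 cultures (31.2%) against 13 of 413 (3.15%). The highest values were in the pool that held the 3 IL4 72 h cultures, where the other 30 cultures had 25.1 to 56.0 CPM of Retnla and 0.750 to 16.8 CPM of Chil3. Other genes differed less sharply. Arg1 had a median of 6.40 CPM in the 9 pools against 1.37 CPM in the 12 (3.99 against 1.12 CPM in untreated wells). Mgl2 was above 0 in 78.2% against 35.8% of cultures and Clec10a in 80.4% against 49.2%, whereas Ccl22 went the other way (37.1% against 51.1%). The pools also differed in plate and stimuli, and the cause of the difference was not tested. Every comparison below is therefore also given, where it matters, with library pool as a term of the fit or within pools.

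**Figure D1:**
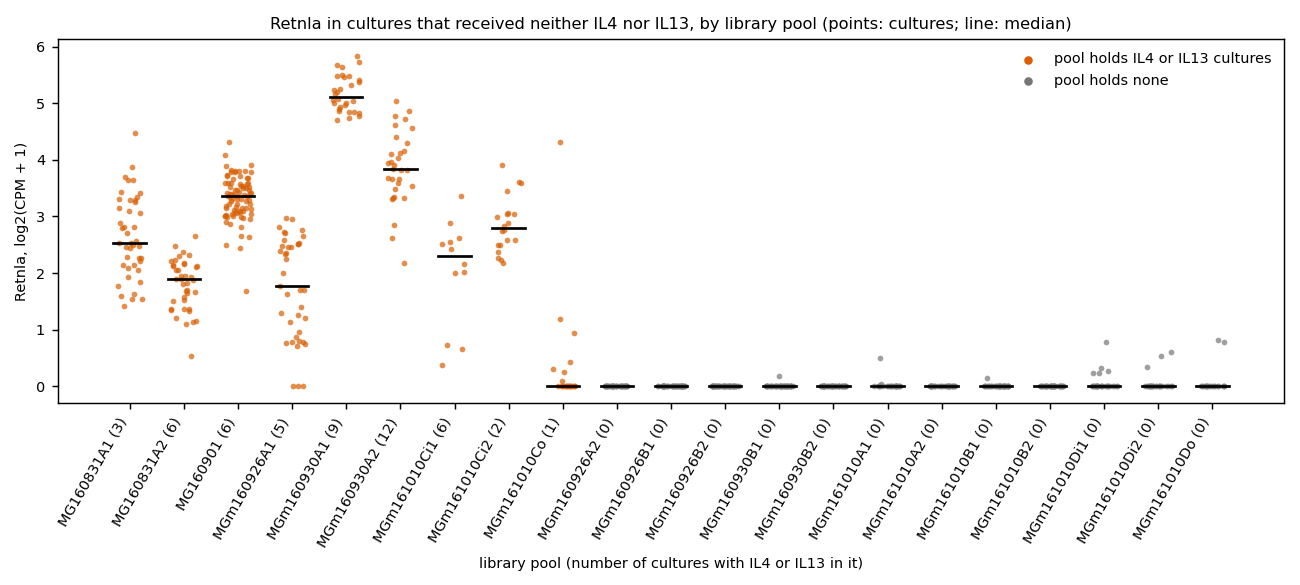
Retnla expression, as log2(CPM + 1), in cultures without IL4 or IL13, by library pool. Each point is a culture and the line the median of the pool; the 9 pools that also held IL4 or IL13 cultures are orange and the other 12 are grey, and 302 of 321 cultures in the former are above 0 against 14 of 413 in the latter.

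IL4 for 24 h raised 6 of the 8 genes tested, namely Arg1, Retnla, Chil3, Mrc1, Mgl2 and Clec10a. A gene was called changed with a Benjamini-Hochberg adjusted p below 0.05 and a log2 fold change of at least 1 in either direction in a limma fit on log2(CPM + 1), and 2.75% of 16942 genes met this (2.09% higher). The median log2 fold change of the 8 genes was 3.04, against 0.10 over all genes. CPM are shares of the reads of a whole well, so that more cells of a kind and more RNA per cell cannot be told apart.

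Arg1 was at 316 CPM in the lowest IL4 culture, 587 at the median and 1050 in the highest, against 0, 1.56 and 7.33 CPM in untreated cultures. All 11 IL4 cultures were above all 40 untreated ones (exact 2-sided rank-sum test, p = 4.2e-11). The log2 fold change was 7.80 ± 0.43 (SE; adjusted p = 6.54e-58), and 6.70 with library pool as a term. Retnla reached 215, 575 and 1173 CPM (lowest, median, highest) against 0, 0 and 11.1 CPM, again with no overlap between the groups. Its log2 fold change of 8.43 ± 0.41 (adjusted p = 9.08e-71) became 6.74 with the pool term. Within the 4 pools that held both groups, the difference was 6.08 to 7.42 for Arg1 and 6.52 to 7.41 for Retnla on the log2 scale, although the 2 or 3 IL4 cultures of a pool allow no exact p below 0.0952.

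The lectins followed. Mgl2 went from 0, 0.209 and 2.18 CPM (lowest, median, highest) in untreated cultures to 17.5, 103 and 207 CPM, with no overlap and a log2 fold change of 6.14 ± 0.27 (adjusted p = 8.96e-85). Its neighbour Clec10a went from 0, 1.06 and 7.33 CPM to 4.60, 35.3 and 48.1 CPM, with 10 of the 11 IL4 cultures above the highest untreated one and a log2 fold change of 3.55 ± 0.31 (adjusted p = 8.15e-25). Mrc1, unlike the others, was already well expressed without a stimulus, at 10.6, 73.7 and 179 CPM. It rose to 214, 322 and 699 CPM with IL4, above every untreated culture, for a log2 fold change of 2.52 ± 0.41 (adjusted p = 2.06e-07; 1.60 with the pool term). Chil3 was listed at 0 in all 40 untreated cultures and at a mean of 5.35 ± 2.78 CPM (SD, n = 11) with IL4, and was above 0 in 10 of 11. Its adjusted p was 4.41e-27, and no fold is given against a group at 0.

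The chemokines did not follow. Ccl17 was at 0 in all 11 IL4 cultures, Ccl22 averaged 0.455 ± 0.567 CPM against 1.22 ± 1.51 CPM untreated (n = 11 and n = 40; log2 fold change -0.43, adjusted p = 0.447), and Ccl24 averaged 0.210 ± 0.324 CPM against 0.102 ± 0.275 CPM (adjusted p = 0.741).

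IL13 for 24 h raised 5 of the 8 genes, where 1.16% of all genes were called higher. Arg1 was at 49.8, 176 and 236 CPM (lowest, median, highest of 9 cultures), Retnla at 37.3, 60.9 and 137 CPM, and Mgl2 at 3.21, 13.8 and 24.2 CPM, all above the highest untreated culture. The log2 fold changes were 5.80 ± 0.46 for Arg1 (adjusted p = 6.6e-29), 5.14 ± 0.44 for Retnla (adjusted p = 4.77e-25; 3.57 with the pool term) and 3.26 ± 0.29 for Mgl2 (adjusted p = 5.98e-24). Mrc1, at 174 to 340 CPM, and Clec10a, at 2.94 to 16.8 CPM, had smaller ones of 1.99 ± 0.44 (adjusted p = 0.00146) and 1.92 ± 0.34 (adjusted p = 1.14e-05). Chil3 was above 0 in 5 of 9 cultures, none above 2.78 CPM, and was not called (0.81 ± 0.22 on the log2(CPM + 1) scale, adjusted p = 0.0214).

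At equal dose IL4 gave higher values than IL13 at 24 h for several of the genes. Retnla, Chil3 and Mgl2 were called, 3 of 8 genes against 0.0708% of all genes called higher with IL4, with log2 differences of 3.28 ± 0.54 (adjusted p = 2.91e-06), 1.66 ± 0.27 (adjusted p = 2.91e-06) and 2.88 ± 0.35 (adjusted p = 2.7e-12). For Arg1 all 11 IL4 cultures were above all 9 IL13 cultures (exact 2-sided rank-sum test, p = 1.19e-05, the smallest these numbers allow), yet the difference of 2.00 was not called (adjusted p = 0.259). With library pool as a term it was (1.84, adjusted p = 0.00432), as was that of Clec10a (1.56, adjusted p = 0.0132; 1.63 and 0.0761 without the term). Mrc1 differed by 0.53 and was not called.

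IL10 for 24 h moved the same genes little. Arg1 was at 4.24, 7.51 and 16.5 CPM (lowest, median, highest of 9 cultures), overlapping the untreated cultures. It was the only gene called, where 0.679% of all genes were called higher, at 1.88 ± 0.46 (adjusted p = 0.00967). With the pool term its change was 0.94 (adjusted p = 0.274), and within the 3 pools that held both groups it was 2.01, 0.51 and 0.39. Mrc1 was at 102 to 249 CPM, with a log2 fold change of 1.43 (adjusted p = 0.0858). Retnla was at 0.730 to 10.6 CPM, and its log2 fold change of 1.39 (adjusted p = 0.105) was -0.19 with the pool term. The levels under each cytokine are shown in the plot of 6 genes at both times.

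**Figure D2:**
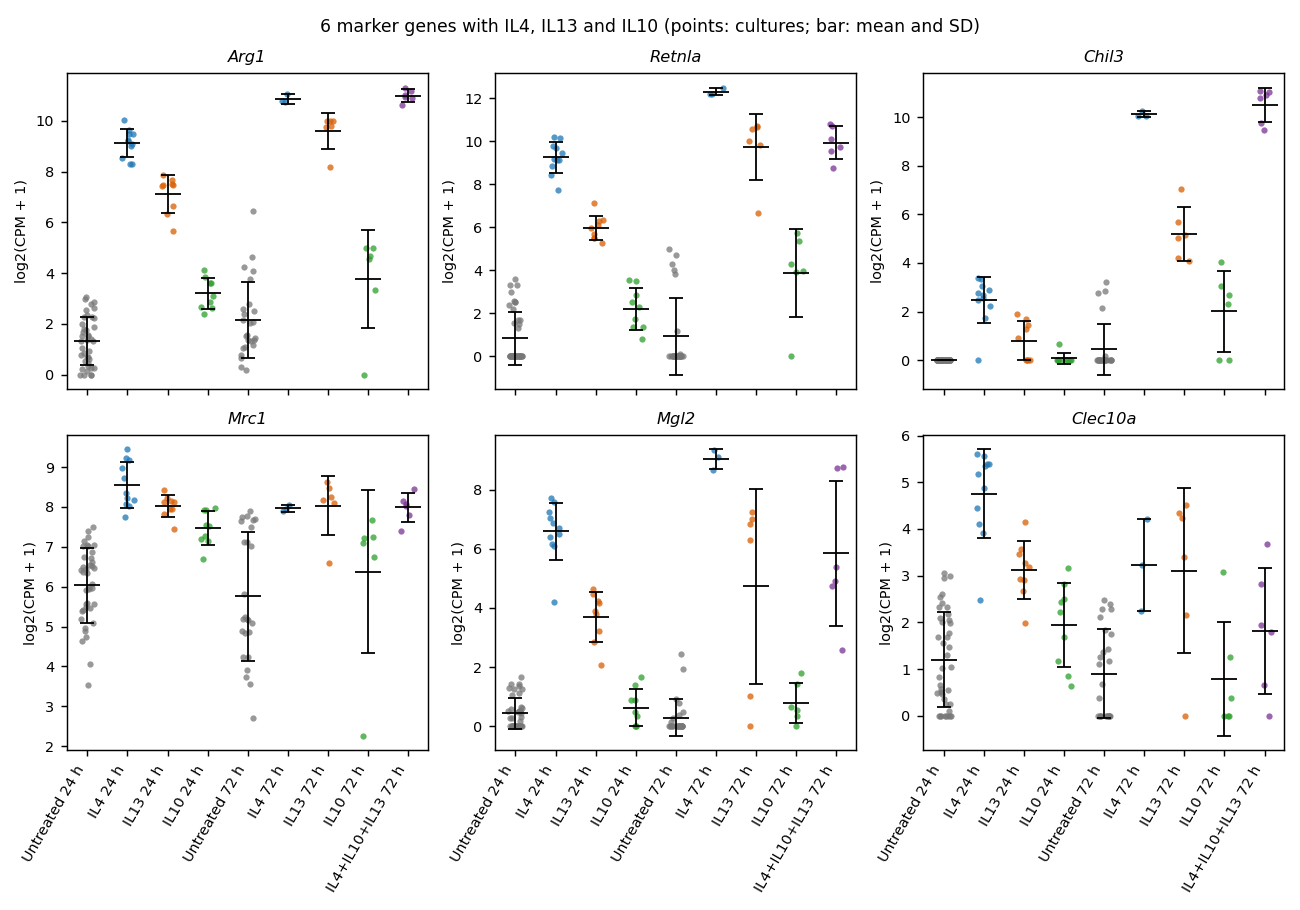
Expression of Arg1, Retnla, Chil3, Mrc1, Mgl2 and Clec10a, as log2(CPM + 1), in untreated cultures and with IL4, IL13 or IL10 at 24 h, and with these and the mix of all 3 at 72 h. Points are cultures, and the bar and error bar are the mean and SD; Arg1, Retnla and Mgl2 in IL4 cultures do not overlap untreated cultures at 24 h, and Chil3 reaches 1045 CPM or more with IL4 at 72 h against at most 9.46 CPM at 24 h.

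After 72 h of IL4 the levels of Retnla, Chil3, Arg1 and Mgl2 were above those after 24 h. Whether the rises over untreated wells differed between the times is given further below. Retnla was at 4806, 4721 and 5819 CPM in the 3 cultures, Chil3 at 1216, 1045 and 1055 CPM, Arg1 at 1719, 2152 and 1758 CPM and Mgl2 at 402, 548 and 640 CPM. No untreated culture at 72 h exceeded 31.01 CPM of Retnla, 8.26 CPM of Chil3, 85.5 CPM of Arg1 or 4.39 CPM of Mgl2. IL4 raised 5 of the 8 genes, where 2.51% of all genes were called higher. Log2 fold changes were 11.39 ± 0.73 for Retnla (adjusted p = 8.92e-44), 9.66 ± 0.37 for Chil3 (adjusted p = 5.03e-102), 8.72 ± 0.77 for Arg1 (adjusted p = 1.19e-24) and 8.73 ± 0.48 for Mgl2 (adjusted p = 3.95e-58).

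The same changes were 6.85 for Retnla, 7.15 for Chil3, 6.32 for Arg1 and 7.45 for Mgl2 with library pool as a term. All 3 IL4 cultures were in a single pool, whose only untreated 72 h culture had 31.01 CPM of Retnla and 16.2 CPM of Arg1. Clec10a, at 8.41, 3.76 and 17.5 CPM, was called at 2.33 ± 0.56 (adjusted p = 0.00262), but not without the third culture (1.84). Mrc1, at 246, 235 and 264 CPM, missed the threshold (2.21, adjusted p = 0.0605), and Ccl24, at 0, 2.72 and 1.68 CPM, passed it only without the first culture (0.88 with it, 1.43 without).

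IL13 for 72 h raised 6 of the 8, where 2.22% of all genes were called higher. Arg1 was at 291, 945 and 1028 CPM (lowest, median, highest of 6 cultures), Retnla at 99.6, 1283 and 1673 CPM, Chil3 at 15.7, 33.1 and 131 CPM and Mrc1 at 96.0, 294 and 395 CPM. Log2 fold changes were 7.48 ± 0.57 for Arg1 (adjusted p = 8.19e-32), 8.81 ± 0.55 for Retnla (adjusted p = 1.58e-46), 4.74 ± 0.27 for Chil3 (adjusted p = 4.02e-52) and 2.28 ± 0.54 for Mrc1 (adjusted p = 0.00243). Mgl2 was uneven, with 113 to 149 CPM in 3 cultures and 0, 1.03 and 78.0 CPM in the others, for a log2 fold change of 4.43 ± 0.35 (adjusted p = 3.9e-29). That SE, taken from all conditions, does not reflect the wide spread of these 6 cultures. Culture 4 of the 6 stood apart, with the lowest Arg1, Retnla and Mrc1, none of Mgl2 or Clec10a and the highest Chil3. The number of genes called was 6 without it as well. Within a pool of 3 IL13 and 3 untreated cultures the differences were 5.62 for Arg1, 6.21 for Retnla, 2.22 for Chil3 and 6.76 for Mgl2, with an exact p of 0.1, the smallest that 3 against 3 allow.

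At 72 h IL4 exceeded IL13 for Chil3 by 4.92 ± 0.43 on the log2 scale (adjusted p = 1.25e-24) and for Mgl2 by 4.30 ± 0.55 (adjusted p = 3.16e-11), 2 of 8 genes against 0.407% of all genes called higher with IL4. The 3 IL4 cultures were also above all 6 IL13 cultures for Arg1 and Retnla (exact 2-sided rank-sum test, p = 0.0238, the smallest possible), but those differences of 1.25 and 2.57 were not called and were -0.25 and 0.25 with the pool term.

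IL10 for 72 h left Arg1 at 0 to 30.6 CPM, Retnla at 0 to 52.0 CPM and Chil3 at 0 to 15.5 CPM. Retnla (2.95 ± 0.55, adjusted p = 4.73e-05) and Chil3 (1.57 ± 0.27, adjusted p = 1.21e-05) were called, 2 of 8 against 1.19% of all genes called higher. With library pool as a term both lost the call, at 0.10 and 0.24. Within a pool of 2 IL10 and 3 untreated cultures the differences were -0.07 and -0.25. Culture 5 of the 6 had no Arg1, Retnla or Chil3 and 3.77 CPM of Mrc1, and without it Arg1 was called as well (2.37). Mrc1 was at 3.77, 142 and 205 CPM (lowest, median, highest of 6 cultures) and was not called (0.62, adjusted p = 0.627). Within the pools that held both groups its difference was 1.99 (2 IL10 cultures against 1 untreated), 2.01 (106 and 136 CPM against 12.4 to 55.1 CPM in 3 untreated) and -2.49 (culture 5 against 6 untreated), where no pool allows an exact p below 0.2.

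The rises differed between the times for some genes. Chil3 rose by 7.20 ± 0.42 more on the log2 scale at 72 h than at 24 h with IL4 (adjusted p = 7.45e-51; 4.67 with the pool term) and by 3.94 ± 0.35 more with IL13 (adjusted p = 2.5e-22; 3.12 with the pool term). With IL13 Retnla rose by 3.67 ± 0.70 more (adjusted p = 0.000232; 3.04 with the pool term). With IL4 the later rise was also larger for Retnla (2.96, adjusted p = 0.0391) and Mgl2 (2.59, adjusted p = 0.00122), but not with the pool term (0.12 and 1.67). These were 3 of 8 genes with IL4, where 0.726% of all genes were called in this direction, and 2 of 8 with IL13, where 0.401% were. Arg1 and Mrc1 were not called with either cytokine. The times were largely on different plates, and the cultures came from 3 lots of cells at 24 h and 1 lot at 72 h. Time therefore cannot be told apart from plate and lot beyond the subtraction of the untreated wells.

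Cultures given IL4, IL10 and IL13 together for 72 h had the highest mean Arg1 and Chil3 of all conditions. Arg1 was at 1567, 2016 and 2551 CPM (lowest, median, highest of 6 cultures) and Chil3 at 701, 1833 and 2151 CPM. The mix raised 6 of the 8 genes against untreated cultures, where 2.38% of all genes were called higher, with log2 fold changes of 8.86 ± 0.57 for Arg1 (adjusted p = 1.27e-43), 9.01 ± 0.55 for Retnla (adjusted p = 1.64e-48), 10.06 ± 0.27 for Chil3 (adjusted p = 2.93e-160) and 5.56 ± 0.35 for Mgl2 (adjusted p = 2.83e-44). These fold changes are not within pools, and the untreated wells of pools with no IL4 or IL13 culture had 0 CPM of Retnla and Chil3. With library pool as a term 6 of the 8 genes were called as well. Against IL4 alone, Arg1 (0.13) and Chil3 (0.39) were not called, although Chil3 was with the pool term (1.16, adjusted p = 0.00457).

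Mgl2 and Ccl24 did differ between the mix and IL4 alone, 2 of 8 genes against 0.679% of all genes. Mgl2 was at 25.6, 40.9, 4.93 and 29.3 CPM in 4 cultures and 424 and 438 CPM in the pair from another pool, and was lower than with IL4 by 3.17 on the log2 scale (adjusted p = 1.58e-05). The 4 low cultures were below all 3 IL4 cultures. Retnla, at 429 to 1769 CPM, was below all 3 IL4 cultures in all 6 (exact 2-sided rank-sum test, p = 0.0238, the smallest possible), but its difference of -2.37 was not called (adjusted p = 0.234).

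Ccl24, which attracts eosinophils through CCR3, appeared with the mix. It was at 0.872, 2.52, 15.3, 13.4, 7.87 and 8.96 CPM in the 6 cultures, against at most 1.27 CPM in the 25 untreated cultures. The log2 fold change against untreated was 2.61 ± 0.17 (adjusted p = 4.43e-42), and the differences were 1.74 ± 0.27 against IL4 alone (adjusted p = 2.49e-07) and 2.67 against IL13 alone (adjusted p = 1.76e-27). At these levels the shallower cultures hold few reads of the gene. Only this mix and the mix with LPS_lo averaged above 5 CPM of Ccl24 among the 97 conditions with at least 3 cultures. Ccl24 thus passed the filter on low values largely through the cultures tested, and its p-values are no independent support.

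LPS_lo alone for 72 h lowered Mrc1 and changed none of the others past the threshold, 1 of 8 genes against 3.7% of all genes called lower. Mrc1 was at 1.70, 9.53 and 17.2 CPM (lowest, median, highest of 11 cultures) against 5.49, 35.6 and 236 CPM untreated, for a log2 fold change of -2.54 ± 0.43 (adjusted p = 2.82e-07; -3.02 with the pool term). Arg1 averaged 8.95 ± 10.7 CPM with LPS_lo and 8.06 ± 17.3 CPM untreated, and Retnla 4.17 ± 5.85 and 4.21 ± 8.98 CPM.

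Whether LPS changes the response to each cytokine was asked by adding the cytokine to LPS_lo. The labels give no cytokine dose for these mixes. Comparisons with the cytokine alone, and the interactions, therefore assume an equal dose. With IL4 added, 6 of 8 genes rose above LPS_lo alone, where 0.809% of all genes were called higher. Arg1 was at 410, 850, 752, 646 and 904 CPM in the 5 cultures, above every LPS_lo culture, for a log2 fold change of 7.04 ± 0.68 (adjusted p = 3.72e-20). Mrc1 was at 60.6, 213, 167, 202 and 191 CPM, also above every LPS_lo culture, at 4.05 ± 0.64 (adjusted p = 2.43e-07). Retnla, at 38.2, 120, 123, 164 and 52.6 CPM, and Chil3, at 22.3, 15.4, 22.3, 19.9 and 38.3 CPM, rose by 5.12 ± 0.65 (adjusted p = 1.02e-11) and 3.90 ± 0.33 (adjusted p = 2.57e-26), but by only 1.69 and 2.08 with the pool term. Mgl2 and Clec10a rose by 2.70 (adjusted p = 1.15e-07; 1.64 with the pool term) and 2.11 (adjusted p = 0.00225).

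Compared with IL4 alone, Retnla, Chil3, Mgl2 and Ccl24 were lower when LPS_lo was present, 4 of 8 genes against 1.31% of all genes called lower. Retnla was lower by 5.86 ± 0.88 on the log2 scale (adjusted p = 3.6e-08), Chil3 by 5.55 ± 0.44 (adjusted p = 2.42e-29) and Mgl2, at 6.39, 18.9, 1.69, 24.0 and 6.03 CPM, by 5.81 ± 0.57 (adjusted p = 1.05e-19). All 5 mixed cultures were below all 3 IL4 cultures for these genes (exact 2-sided rank-sum test, p = 0.0357, the smallest possible). The call of Ccl24, at 0 in all 5 mixed cultures, was lost without the second or the third IL4 culture. For Arg1 too all 5 were below all 3, with the same exact p, but its smaller difference of -1.44 was not called (adjusted p = 0.641), nor was that of Mrc1 (-0.70, adjusted p = 0.973). Within the pool that held 4 mixed and 3 IL4 cultures the differences were -5.68 for Retnla, -5.73 for Chil3, -5.71 for Mgl2 and -1.54 for Arg1.

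The interaction term tests whether IL4 and LPS_lo together gave less or more than the sum of their separate log2 changes. It was called for Retnla (-6.27 ± 0.98, adjusted p = 2.8e-07), Chil3 (-5.77 ± 0.49, adjusted p = 1.78e-25) and Mgl2 (-6.03 ± 0.64, adjusted p = 6.3e-17), 3 of 8 genes against 0.472% of all genes called in this direction, and with the pool term these were -5.16, -5.07 and -5.82. For Arg1 it was -1.68 ± 1.02 (adjusted p = 0.683). For Mrc1 it was positive, 1.85 ± 0.97 (adjusted p = 0.581), and was called only with the pool term (2.54, adjusted p = 0.034). The plot of cytokines with and without LPS shows the cultures behind these differences.

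**Figure D3:**
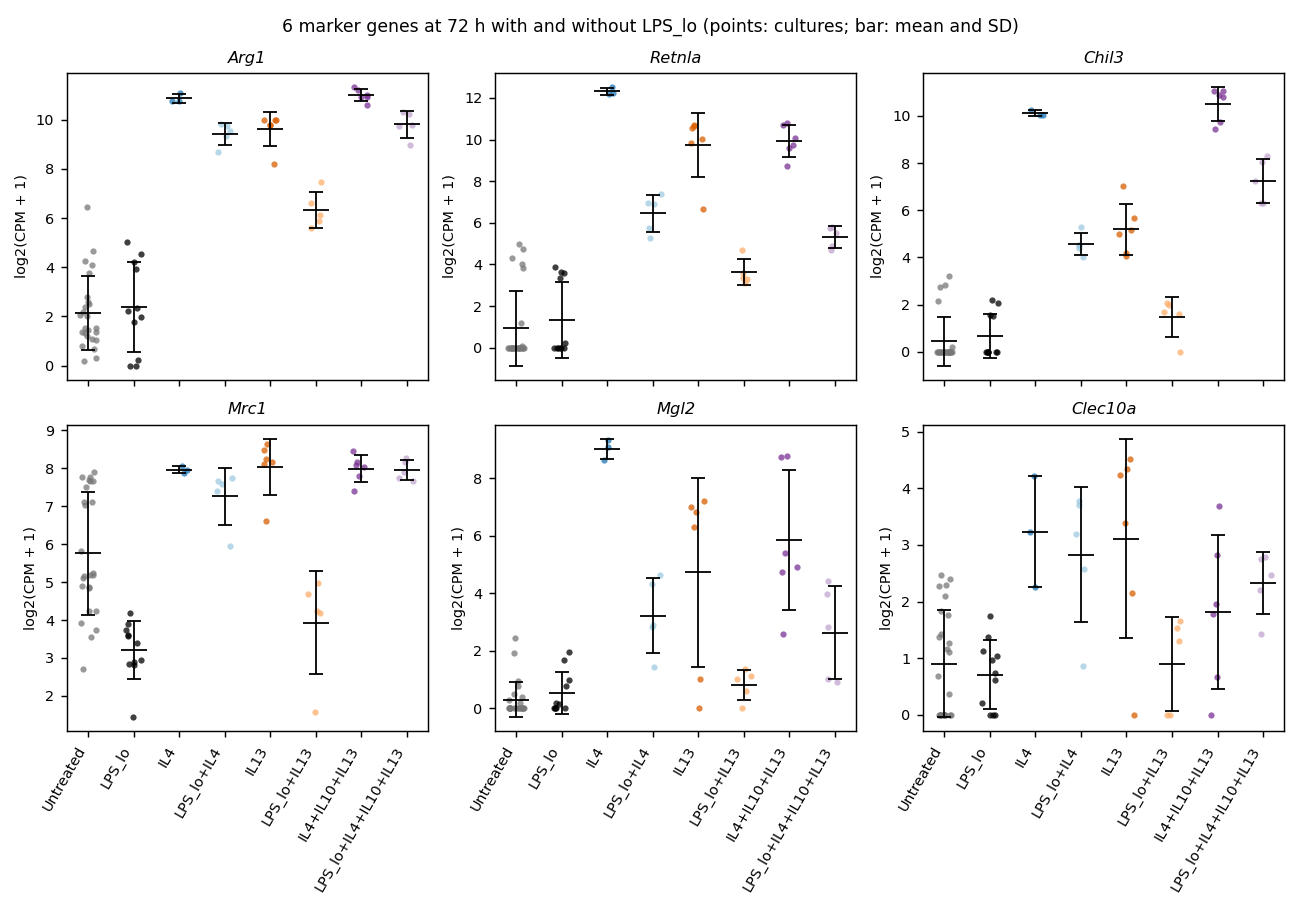
Expression of Arg1, Retnla, Chil3, Mrc1, Mgl2 and Clec10a, as log2(CPM + 1), at 72 h in untreated cultures, with LPS_lo, and with IL4, IL13 or the mix of IL4, IL10 and IL13, each without and with LPS_lo. Points are cultures, and the bar and error bar are the mean and SD; with IL4 plus LPS_lo Arg1 stays at 410 to 904 CPM, while Retnla falls to 38.2 to 164 CPM from 4721 CPM or more with IL4 alone.

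With IL13 in place of IL4, only Arg1 rose above LPS_lo alone, 1 of 8 genes against 0.0826% of all genes called higher. It was at 57.5, 68.5, 96.4, 174 and 47.5 CPM, above every LPS_lo culture, for a log2 fold change of 3.95 ± 0.68 (adjusted p = 7.09e-05; 2.35 with the pool term). Mrc1 stayed at 17.1, 30.7, 18.03, 24.5 and 2.01 CPM (0.72, not called). Compared with IL13 alone 6 of 8 genes were lower, where 3.83% of all genes were called lower, among them Arg1 by 3.29 ± 0.76 (adjusted p = 0.000832), Mrc1 by 4.10 ± 0.72 (adjusted p = 2.75e-06) and Retnla by 6.12 ± 0.73 (adjusted p = 1.56e-13). Within the pool that held 4 mixed and 3 IL13 cultures the differences were -3.33 for Arg1, -3.77 for Mrc1 and -6.65 for Retnla. The interaction was called for Arg1 (-3.53 ± 0.88, adjusted p = 0.0262), Retnla (-6.53 ± 0.85, adjusted p = 1.72e-10), Chil3 (-3.93 ± 0.43, adjusted p = 1.87e-15) and Mgl2 (-4.14 ± 0.55, adjusted p = 4.56e-10), 4 of 8 genes against 0.319% of all genes called in this direction.

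In the presence of LPS_lo, IL4 thus gave higher values than IL13 for Arg1 (by 3.10 on the log2 scale, adjusted p = 0.0285), Mrc1 (3.33, adjusted p = 0.00718), Chil3 (3.09, adjusted p = 1.3e-11), Mgl2 (2.41, adjusted p = 0.00138) and Retnla (2.84, adjusted p = 0.0488), 5 of 8 genes against 0.212% of all genes called higher. For each of Arg1, Mrc1, Chil3, Mgl2 and Retnla all 5 cultures with IL4 were above all 5 with IL13. The cultures with IL4 and those with IL13 were mostly in different library pools. In these pools the wells given neither cytokine had median Retnla of 33.7 and 13.3 CPM and median Chil3 of 7.13 and 3.65 CPM. Cytokine and pool are therefore largely mixed in this comparison. With library pool as a term 5 of the 8 genes were called.

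With all 3 cytokines added to LPS_lo, 7 of 8 genes rose above LPS_lo alone, where 1.95% of all genes were called higher. Arg1 was at 846, 1189, 504, 888 and 1289 CPM, Mrc1 at 287, 305, 201, 239 and 212 CPM and Chil3 at 318, 150, 263, 78.0 and 78.8 CPM, all above every LPS_lo culture. Log2 fold changes were 7.43 ± 0.68 (adjusted p = 9.66e-23), 4.74 ± 0.64 (adjusted p = 1.67e-10) and 6.58 ± 0.33 (adjusted p = 9.15e-68). These were not within pools, and 7 of the 8 genes were called with library pool as a term as well. Against the mix without LPS, Retnla was lower by 4.62 (adjusted p = 4.4e-07), Chil3 by 3.26 (adjusted p = 2.74e-14) and Mgl2 by 3.23 (adjusted p = 3.82e-08), 3 of 8 against 0.207% of all genes called lower, while Mrc1 differed by -0.04 and Arg1 by -1.19, neither called. All 5 mixed cultures were nevertheless below all 6 for Arg1 (exact 2-sided rank-sum test, p = 0.00433). Chil3 was higher than with LPS_lo and IL4 alone by 2.68 (adjusted p = 1.79e-08), as was Ccl24, at 16.6, 3.70, 7.99, 0 and 0.515 CPM against 0 in all 5 (adjusted p = 1.12e-12), 2 of 8 genes against 0.142% of all genes called higher. Interactions were called for Retnla (-5.03), Chil3 (-3.47) and Mgl2 (-3.45), 3 of 8 against 0.791% of all genes called in this direction. For Mrc1 the interaction was 2.50 (adjusted p = 0.115), and 3.07 with the pool term (adjusted p = 9.84e-05). The rise of Clec10a above LPS_lo (1.62, adjusted p = 0.0246) was lost without any of the cultures 1, 3, 4 or 5.

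IL10 with LPS_lo did not restore Mrc1, which was at 16.2, 31.8, 32.1, 15.7 and 10.99 CPM (1.16 against LPS_lo, adjusted p = 0.409). Retnla (2.69, adjusted p = 0.00563) and Chil3 (1.93, adjusted p = 7.46e-06) were called against LPS_lo, 2 of 8 against 0.425% of all genes called higher, but were 0.02 and 0.57 with the pool term and not called. In limma no gene was called for the interaction with IL10, and none of the 8 had an unadjusted p below 0.05, where 0.874% of all genes were called.

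Across the panel each gene was compared with untreated cultures in 87 conditions at 24 or 72 h, including those above. The single 72 h culture labelled LPS_hi at the low dose was 1 of the 87, with its spread taken from the other conditions, and the call of Clec10a in it with library pool as a term (2.63) rests on that culture alone. Of all gene-by-condition tests 2.24% were called higher and 3.43% lower (2.06% and 3.3% with library pool as a term). Arg1 was called higher in 26 conditions, Retnla in 24, Chil3 in 15, Mgl2 in 9, Ccl22 in 9, Clec10a in 7, Mrc1 in 6 and Ccl24 in 2. With library pool as a term Arg1 was higher in 21 conditions, Retnla in 7 and Chil3 in 6. Those 7 and 6 were all conditions with IL4 or IL13. The levels of all 9 genes in all conditions are shown in the heat map.

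**Figure D4:**
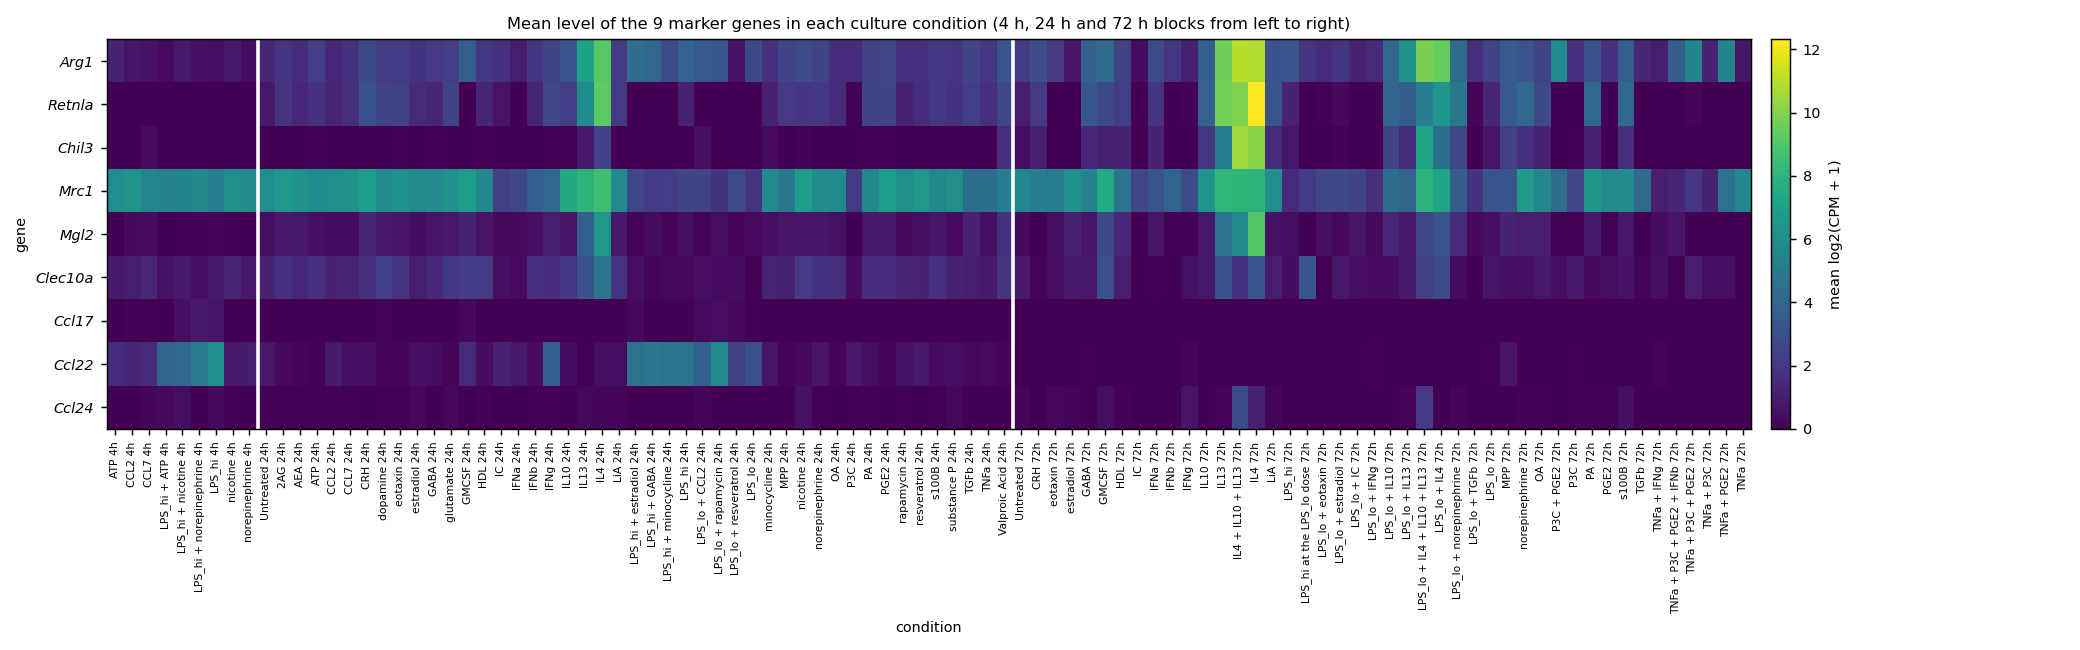
Mean expression, as log2(CPM + 1), of the 9 genes in all 98 conditions, in blocks for 4, 24 and 72 h. Each row is a gene and each column a condition; Retnla, Chil3 and Mgl2 are brightest in the conditions with IL4 or IL13, Mrc1 is dark in most with LPS at 24 and 72 h, and Ccl22 is bright with LPS at 4 and 24 h.

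Arg1 also rose without IL4 or IL13. With LPS_hi at 24 h it was at 6.12, 13.01 and 24.9 CPM (lowest, median, highest of 18 cultures), for a log2 fold change of 2.54 ± 0.36 (adjusted p = 4.88e-11), and 16 of the 18 were above the highest untreated culture. Prostaglandin E2 (PGE2) alone gave 3.82 ± 3.95 CPM at 72 h (SD, n = 8). PGE2 with the stimulus labelled P3C gave 79.9 ± 54.1 CPM (n = 7), with TNFa 115 ± 174 CPM (n = 8) and with both 66.6 ± 50.4 CPM (n = 7). These PGE2 mixes were called higher than untreated with the pool term as well. They varied widely between cultures, from 3.11 to 525 CPM with TNFa and PGE2. GMCSF gave 13.1 ± 5.80 CPM at 24 h (n = 8) and 28.6 ± 24.3 CPM at 72 h (n = 7).

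GMCSF, a growth factor for macrophages and dendritic cells, was the other single stimulus that raised the lectins and Mrc1. At 72 h Mrc1 was at 71.4, 228 and 338 CPM (lowest, median, highest of 7 cultures; log2 fold change 1.82), Mgl2 at 0, 4.75 and 42.2 CPM (2.41) and Clec10a at 0.835, 11.9 and 26.6 CPM (2.11), each called with and without the pool term. The groups overlapped for all of them.

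Mrc1 was lower than in untreated cultures in 32 conditions, and in 39 with library pool as a term, the only gene of the set to fall so widely. It fell with LPS, IFNa, IFNg and the stimuli labelled IC and P3C at both times, with IFNb, TGFb and TNFa at 24 h, with MPP at 72 h, and with mixes of TNFa. With LPS_hi at 24 h it averaged 7.46 ± 7.08 CPM (n = 18) against 77.3 ± 43.5 CPM untreated (n = 40), a log2 fold change of -3.51 ± 0.34 (adjusted p = 8.49e-22). With IFNa it averaged 9.62 ± 10.5 CPM at 24 h (n = 8; -3.41), and with TNFa and IFNg 1.29 CPM at 72 h (-4.81), the lowest mean of any condition.

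Ccl22 followed LPS, not IL4. With LPS_hi at 24 h it was at 1.30, 24.4 and 496 CPM (lowest, median, highest of 18 cultures) against 0, 0.553 and 5.11 CPM untreated. All 18 were above the untreated median and 15 above the highest untreated culture, for a log2 fold change of 3.83 ± 0.22 (adjusted p = 1.55e-54). LPS_hi at 24 h changed 3 of the 8 genes (Arg1 and Ccl22 higher, Mrc1 lower), where 16.2% of all genes were called. IFNg at 24 h gave 25.1 ± 19.2 CPM of Ccl22 (n = 9; log2 fold change 2.86). Rapamycin, an inhibitor of mTOR, added to LPS_lo for 24 h gave 22.2, 47.3 and 247 CPM (lowest, median, highest of 7 cultures) against 0.422, 11.6 and 27.8 CPM with LPS_lo alone, a log2 difference of 2.89 ± 0.41 (adjusted p = 4.73e-08).

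At 4 h LPS_hi gave 74.2 ± 38.5 CPM of Ccl22 (n = 7), and less with ATP (18.9 ± 13.8 CPM, n = 6; -2.04, adjusted p = 0.000447) or nicotine (18.98 ± 10.04 CPM, n = 8; -1.88, adjusted p = 0.00119). At 72 h it was near 0 with LPS_hi, LPS_lo and IFNg. Ccl17, its neighbour, was at 0 in every culture with IL4 or IL13 at either time and reached 7.76 CPM in a single LPS_hi culture at 4 h, the highest value in any culture.

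The order of the conditions, by mean log2 value, differed from gene to gene. For Arg1 the mix of 3 cytokines (2073 ± 344 CPM, n = 6) and IL4 at 72 h (1876 ± 239 CPM, n = 3) led and did not differ beyond their spread (exact 2-sided rank-sum test, p = 0.548). The mix with LPS_lo (943 ± 311 CPM), IL13 at 72 h (849 ± 282 CPM), LPS_lo with IL4 (712 ± 196 CPM) and IL4 at 24 h (595 ± 222 CPM) came next, with exact p of 0.792, 0.177 and 0.221 between neighbours. IL13 at 24 h (153 ± 62.1 CPM) came after all of these, below every IL4 culture at 24 h (exact p = 1.19e-05). For Retnla IL4 at 72 h (5115 ± 611 CPM) was first, above the mix (1095 ± 527 CPM; exact p = 0.0238), and the mix, IL13 at 72 h and IL4 at 24 h followed with exact p of 0.937 and 0.0782 between neighbours. For Chil3 the order was the mix, IL4 at 72 h (exact p = 0.548), the mix with LPS_lo (exact p = 0.0357), IL13 at 72 h (exact p = 0.0173) and LPS_lo with IL4 (exact p = 0.429), each p against the condition before it. For Mgl2 IL4 at 72 h led IL4 at 24 h (exact p = 0.00549), which did not differ beyond the spread from the mix (exact p = 0.462).

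The genes whose pattern across the 97 conditions with at least 3 cultures was most like each of the 8 that passed the filter on low values were found by Pearson correlation of mean log2 values. The conditions share untreated levels, plates and pools, and r is a description only. Retnla was nearest to Mgl2 (r = 0.901), Rnase2a (0.883) and Tmem26 (0.852), and Mgl2 to Rnase2a (0.958), Cldn11 (0.912) and Tuba8 (0.903). Chil3 was nearest to Msx3 (0.924), Pdcd1lg2 (0.855) and Retnla (0.838), and Arg1 to Tmem26 (0.850), Msx3 (0.833) and Chil3 (0.809). Clec10a was nearest to Egr2 (0.820), P2ry1 (0.791) and Mcf2l (0.762), and Ccl24 to Bex1 (0.811), Chil3 (0.760) and Msx3 (0.718). Mrc1 had other neighbours, Ptgs1 (0.911), Atp6v0a1 (0.907) and Emp1 (0.888). Ccl22 was nearest to Dusp2 (0.917) and the inflammatory cytokines Il12b (0.896) and Il6 (0.890), and its r with the other 7 genes tested was between -0.303 and -0.081.

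A list of 26 other genes of the IL4 response, of which 24 were tested, was chosen with earlier results of these data known and is not independent evidence. At 24 h 20 of the 24 rose with IL4 (median log2 fold change 2.03, against 0.10 over all genes, of which 2.09% were called higher) and 15 rose with IL13 (median 1.53 against 0.11, with 1.16% called higher). With IL10 none rose and 1 fell (median 0.24 against 0.03, with 0.679% of all genes called higher). At 72 h 18 rose with IL4 (median 2.93 against -0.08, with 2.51% of all genes called higher) and 12 with IL13 (median 1.44 against -0.02, with 2.22% called higher). Slc7a2, a transporter that supplies arginine, went from 55.5 to 550 ± 101 CPM with IL4 at 24 h (3.50 ± 0.35) and stood at 695 CPM with LPS_lo and IL4 at 72 h, against 522 CPM with IL4 alone (0.22, not called). The transcription factor genes Egr2 (3.45 ± 0.50), Klf4 (3.10 ± 0.35) and Irf4 (2.85 ± 0.28) rose with IL4 at 24 h, as did Ppargc1b (2.52 ± 0.39), Batf3 (2.98 ± 0.38) and Pparg (1.34 ± 0.43).

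The rest of the list at 24 h of IL4 was as follows. The adhesion gene Cdh1 (3.58 ± 0.27), the VEGF receptor gene Flt1 (2.16 ± 0.34), the lectin gene Clec7a (2.12 ± 0.26), the immune checkpoint ligand gene Pdcd1lg2 (1.94 ± 0.17), the protease gene Mmp12 (1.55 ± 0.41) and the ribonuclease gene Rnase2a (5.24 ± 0.18) rose. So did Socs2, Il4i1, Matk, Myc, Atp6v0d2, Ch25h and Il31ra, by 1.17 to 3.36. Tgm2, Cd36, Msr1 and Il1rn did not pass the threshold. With LPS_lo present Rnase2a (-6.19 ± 0.39), Batf3 (-4.37 ± 0.81), Socs2 (-3.15 ± 0.84) and Cdh1 (-2.67 ± 0.58) were lower than with IL4 alone at 72 h, while Egr2 (-0.60), Klf4 (-0.42) and Pdcd1lg2 (-0.75) were not called.

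Of 14 tested genes for the IL4 receptor and its signalling, Socs1 (3.11 ± 0.39) and Cish (3.00 ± 0.22), feedback inhibitors of JAK and STAT signalling, rose with IL4 at 24 h, and both rose with IL13 (1.75 and 1.34). Il4ra, the shared receptor chain, averaged 27.5 CPM untreated and 12.5 ± 2.91 CPM with IL4 (-0.95, not called), and rose with IL10 alone (2.56 ± 0.25). Stat6 (-0.12) and Jak1 (0.17) were not called with IL4. Of 5 tested relatives of the 9 genes, none was called with IL4 at 24 h, where Arg2, the mitochondrial arginase, averaged 2.21 CPM against 1.21 CPM (0.71). At 72 h only Chil4 rose with IL4, at 17.7 CPM on average (3.67 ± 0.14), against at most 0.187 CPM untreated. Chil4 thus passed the filter on low values through stimulated cultures, and its call is no independent support. Retnlg was listed at 0 in every untreated culture and averaged 4.09 CPM with IL4 at 72 h. Chil3 and Retnla averaged 1105 and 5115 CPM in the same cultures. Whether some of their reads were listed under these relatives could not be checked. Of 7 tested genes for the cytokines and their and the chemokine receptors, none was called with IL4 at either time. Ccr3, the receptor of Ccl24, was higher with LPS_lo and IL4 than with IL4 alone at 72 h (4.22 ± 0.64).

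Markers of other myeloid cells moved with IL4. The summed level of 6 monocyte markers was 18.2, 95.8 and 219 CPM (lowest, median, highest) in untreated cultures at 24 h and 182, 368 and 785 CPM with IL4, with 2 of the 5 tested rising, Fn1 (2.12 ± 0.38) and S100a4 (1.83 ± 0.38). The median of 3 others, Ly6c2, Plac8 and Vcan, was 0 in untreated cultures. Of 5 tested dendritic cell markers Itgax rose (1.88 ± 0.42), and Cd209a and Ccr7 had a median of 0. Of 9 microglial markers Cx3cr1 fell (-1.92 ± 0.46), and the summed level was 4601 CPM at the median with IL4 against 6451 CPM. Of 8 neutrophil markers 6 were at a median of 0, and none of the 3 tested was called. The perivascular macrophage marker Cbr2 (1.44 ± 0.46) rose, 1 of 7 tested, as did Siglecf (1.04 ± 0.27), the only eosinophil or mast cell marker tested. None was called of the tested markers of T cells (2), astrocytes (4), oligodendrocytes (2), neurons (2) and fibroblasts (3). At 72 h the sum of the monocyte markers was 15.97 CPM at the median untreated, 531 with IL4 (487 to 700 CPM) and 157 with IL13, and that of the dendritic cell markers 36.4 CPM untreated, 1811 with IL4 (1447 to 1940 CPM) and 277 with IL13. Of these monocyte and dendritic cell markers, those called with IL4 were Fn1 (6.43 ± 0.68), S100a4 (3.87 ± 0.68) and Itgax (5.78 ± 0.76), while Ly6c2, Plac8, Vcan, Flt3, Cd209a and Ccr7 had a median of 0 there. Of 9 microglial markers 1 was called higher with IL4 at 72 h, and of 7 perivascular macrophage markers 1 was higher and 1 lower. The dendritic cell sum was 10.5 CPM at the median with LPS_lo and 230 CPM with LPS_lo and IL4, and the monocyte sum 10.8 and 138 CPM. The part of these changes in those of the 9 genes was not tested.

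In mice the levels of the genes were unlike those in IL4 cultures. Arg1 averaged 1.55 to 2.50 CPM and Retnla 0.415 to 2.99 CPM in the 4 groups, and Ccl24 0.860 to 3.47 CPM. Mrc1 averaged 23.2 to 41.8 CPM, Mgl2 15.8 to 53.0 CPM and Chil3 8.36 to 125 CPM.

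LPS in mice changed 3 of the 4 genes that passed the filter in that experiment, where 8.33% of 9012 genes were called. Mgl2 fell, with 63.2, 50.5, 48.6 and 39.8 CPM in PBS mice and 16.8, 12.8, 14.5 and 18.97 CPM in LPS mice, a log2 fold change of -1.61 ± 0.19 (adjusted p = 1.91e-05). Ccl22 rose from 1.57, 0.577, 1.98 and 1.01 CPM to 14.4, 22.7, 23.3 and 13.4 CPM (3.09 ± 0.31, adjusted p = 4.08e-06). Chil3 rose from 6.87, 6.35, 14.8 and 5.36 CPM to 18.5, 27.1, 22.97 and 28.7 CPM (1.52 ± 0.28, adjusted p = 0.00126). Ccl17, outside the fit, was at 1.37, 1.01, 0.791 and 0 CPM with PBS and 5.01, 3.46, 6.86 and 3.65 CPM with LPS. The groups did not overlap for any of these (exact 2-sided rank-sum test, p = 0.0286, the smallest that 4 against 4 allow). Mrc1 averaged 30.5 ± 5.15 against 41.8 ± 15.7 CPM and was not called (-0.38, adjusted p = 0.286). Arg1, Retnla, Clec10a and Ccl24 each averaged less with LPS than with PBS, with an exact p of 0.114 for each.

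Markers of other cells moved with LPS in the mice. The summed level of 8 neutrophil markers was 93.2 to 172 CPM with PBS and 192 to 356 CPM with LPS, and 4 of the 6 tested rose. Of 5 tested monocyte markers Plac8 (2.34) and Ly6c2 (1.10) rose and Ccr2 (-1.90) fell. Of 5 tested dendritic cell markers Ccr7 (3.49) and Xcr1 (1.24) rose and Cd209a (-1.10) fell. Among the other IL4 response genes 8 of 12 tested rose with LPS, and among those of the receptor and its signalling 5 of 13, where 5.29% of all genes were called higher. The part of the markers in the changes of Chil3, Mgl2, Ccl22 and Ccl17 was not tested.

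Between 2 and 22 months Chil3 rose, 1 of the 4 genes tested, where 1.25% of 9632 genes were called higher. It was at 17.9, 47.2 and 101 CPM (lowest, median, highest of 11 mice) at 2 months and at 39.5, 103 and 330 CPM (13 mice) at 22 months. The groups overlapped, with 11 of the 13 old mice above the median of the young, and the log2 fold change was 1.19 ± 0.33 (adjusted p = 0.0403). With library batch as a term it was 1.17 (adjusted p = 0.00848), and within the 2 batches it was 1.56 (4 against 4 mice, exact p = 0.114) and 0.97 (9 against 7, exact p = 0.0229). The summed level of neutrophil markers was 177, 665 and 1358 CPM at 2 months and 376, 1363 and 4595 CPM at 22 months, with 3 of 7 tested markers higher. Of 5 tested monocyte markers Fn1 (1.16) and Ly6c2 (1.39) were higher as well. The T cell marker sum was 0.365, 3.78 and 15.01 CPM at 2 months and 6.06, 18.1 and 60.1 CPM at 22 months, and Trbc2, the only one tested, was higher (2.15 ± 0.34, adjusted p = 0.000269). The dendritic cell marker Itgax was higher (1.16), 1 of 4 tested, and the perivascular macrophage marker Lyve1 lower (-1.03), 1 of 6. The part of these markers in the rise of Chil3 was not tested. Of the other IL4 response genes 2 of 12 were higher with age, against the 1.25% of all genes.

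Mrc1 (-0.40), Mgl2 (-0.46) and Clec10a (-0.02) were not called with age. Retnla, too low for the fit, averaged 0.415 ± 0.562 CPM (n = 13) against 2.08 ± 1.59 CPM (n = 11) in the young (exact 2-sided rank-sum test, p = 0.00488), and within the batches the exact p was 0.143 and 0.0311. Ccl22 averaged 2.07 against 0.688 CPM (exact p = 0.0465), and within the batches 0.657 and 0.0712. The values of every mouse are shown in the plot of the 9 genes by group.

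**Figure D5:**
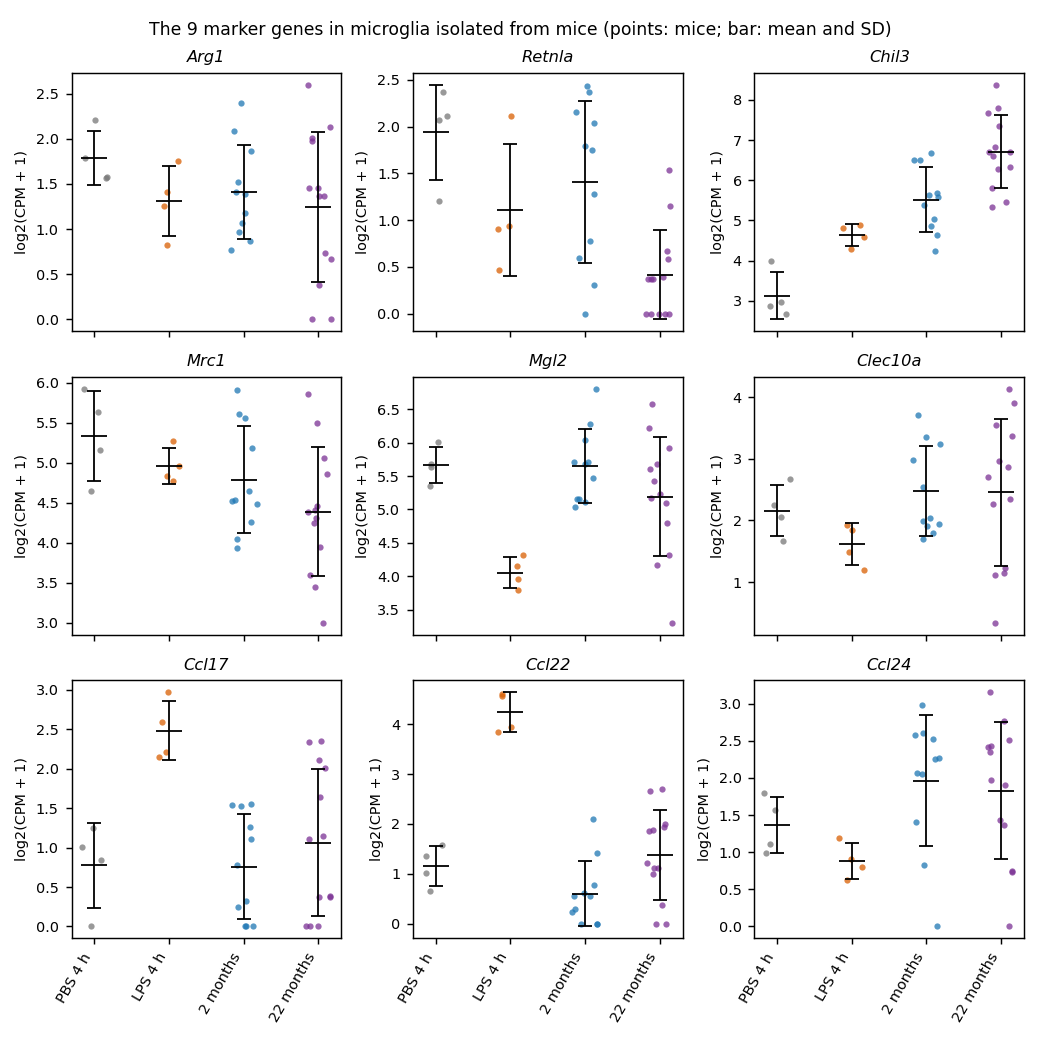
Expression of the 9 genes, as log2(CPM + 1), in microglia from mice given PBS or LPS (4 h, 4 mice each) and from mice 2 months (11) or 22 months old (13). Each point is a mouse and the bar the mean with its SD; Mgl2 is lower and Ccl22, Ccl17 and Chil3 are higher in every LPS mouse than in every PBS mouse, and Chil3 is higher in most old mice.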

How the data were processed

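Libraries were made by amplification of barcoded cDNA pooled across samples and sequenced from the 3′ end of transcripts. Microglia from mice were isolated with CD11b magnetic beads after perfusion. The authors mapped reads with Salmon 0.7.1, summed them over the isoforms of a gene, divided them by the mapped reads of the library and left out shallow libraries. The deposited values are CPM in 2 tables, one of cultures and one of mice, in which every column matched a sample and no 2 samples had identical values. The submitters' processing notes name the build mm8, whereas the study's methods name an Ensembl annotation that is on GRCm38; no coordinate below comes from the deposited tables. Gene positions are from GENCODE M21 and promoters from RefSeq, both on GRCm38.

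Genes were tested with limma 3.58.1 (R 4.3.3) on log2(CPM + 1), in one fit over 784 cultures and separate fits for the LPS and aging mice, with a variance trend and Benjamini-Hochberg adjustment over all genes above 5 CPM in at least 4 samples (11 in the aging mice). A fold change on this scale understates the change of low genes. A gene was called with an adjusted p below 0.05 and a log2 fold change of at least 1 in size. Values after ± are SD for CPM and SE for log2 changes, and the SE uses 1 spread per gene over all samples of the fit. Exact 2-sided rank-sum tests (scipy 1.17.1) stand beside single genes. The alternatives were a pseudocount of 0.1 or 5, no filter, plate or library pool as a term, groups compared alone, the rank-sum test across genes, and each culture left out of small groups. Library pool in the fits over the whole panel and in the interaction, and leaving out culture 4 of IL13 or culture 5 of IL10 at 72 h, were added after the data were seen. Whole reads could not be recovered from the CPM, so that no count model was used. The scripts were tested on simulated data.

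By the rule for names, the 9 genes were named, with values for those a comparison turns on. For each of the 8 above the filter the 3 other genes with the highest Pearson r were named, and from the lists those called with IL4 or IL13 at 24 h, besides the relatives Chil4, Retnlg and Arg2. The lists were other IL4 response genes, the IL4 receptor and its signalling, relatives of the 9 genes, cytokines and chemokine receptors, and cell type markers. Other genes named from them were chosen after their values were seen. The genes and lists were chosen with earlier results of these data known. Labels gave no replicate numbers, and cultures are numbered in the order of the samples. Salmon detected the library type by itself.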

Additional observations from a re-analysis of the deposited data

Results flagged for a closer look

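Single cultures stood far from the rest of their group in 8 of 49 combinations of a gene and a chosen group that averaged at least 5 CPM. By chance about 1 in 20 groups is marked. The chosen groups, of 4 to 9 samples, were IL13 or IL10 at 24 or 72 h and IL4, IL10 and IL13 together at 72 h. LPS_lo with each of these cytokines or all of them at 72 h, and the LPS and PBS mice, were also included. Other conditions were not looked at. The 8 came from 4 cultures, and genes of 1 culture are not independent, so that the 8 were not tested against that rate. IL13 72 h culture 4 had 291 CPM of Arg1, 99.6 CPM of Retnla and 96.0 CPM of Mrc1, each far below the other 5 cultures. IL10 72 h culture 5 had 0 CPM of Arg1, 0 CPM of Retnla and 3.77 CPM of Mrc1. Mrc1 was at 60.6 CPM in LPS_lo + IL4 culture 1 and at 2.01 CPM in LPS_lo + IL13 culture 5, each the lowest of its group. The 2 cultures that stood apart with IL13 and IL10 were in the same library pool. The cause was not tested.

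The change with a cytokine differed with the presence of LPS_lo, by the interaction term, in 10 cases. With IL4 these were Retnla (-6.27), Chil3 (-5.77) and Mgl2 (-6.03). With IL13 they were Arg1 (-3.53), Retnla (-6.53), Chil3 (-3.93) and Mgl2 (-4.14). With the mix of 3 cytokines they were Retnla (-5.03), Chil3 (-3.47) and Mgl2 (-3.45). The change differed between 72 and 24 h in 6 cases, namely Retnla (2.96), Chil3 (7.20) and Mgl2 (2.59) with IL4, Retnla (3.67) and Chil3 (3.94) with IL13, and Chil3 (1.49) with IL10. The differences with time for Retnla and Mgl2 with IL4 and for Chil3 with IL10 were not called with library pool as a term (0.12, 1.67 and 0.10).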

How the results depend on the processing

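Of 265 counts of called genes under an alternative, 236 were within 1.5 times the reported count. The exact rank-sum test across genes, which small groups can hardly pass after adjustment, called 0 of the genes for IL4 against IL13 at 24 h and at 72 h, IL10 at 72 h, LPS_lo + IL13 and LPS_lo + IL10 against LPS_lo, and LPS_lo with IL4, IL13 or their mix with IL10 against the same without LPS_lo; it called 2 for IL10 at 24 h. With pool as a term the count was 0 for IL10 at 24 h, IL10 at 72 h and LPS_lo + IL10 and 5 for IL4 against IL13 at 24 h; with plate as a term it was 0, 0, 1 and 5. Groups compared alone gave 2 for IL10 at 24 h and 0 for IL10 at 72 h, IL4 against IL13 at 72 h, LPS_lo + IL13 and LPS_lo + IL10. A pseudocount of 0.1 gave 2 for IL10 at 24 h, 1 for IL4 against IL13 at 24 h and 1 for the mix with against without LPS_lo, and a pseudocount of 5 gave 1 for LPS_lo + IL10. With no filter the count was 5 for IL4 against IL13 at 24 h, 2 for LPS_lo + IL13 and 0 for age. Retnla with IL10 at 24 h turned to -0.011 with plate and -0.19 with pool as a term. Of 1011 single values, 896 stayed on their side of the threshold, 77 lost and 36 gained a call, and 2 turned. The causes were not tested.

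Leaving out single cultures, 9 to 11 of the interactions were called, against 10 with all cultures (9 without LPS_lo + IL13 culture 1 or 5, 11 without IL4 culture 1, IL13 culture 4 or LPS_lo + mix culture 1). IL4 at 72 h gave 4 to 6 genes, IL4 against IL13 at 72 h 2 to 3, LPS_lo + IL4 against IL4 3 to 4, the mix with against without LPS_lo 3 to 4 and against LPS_lo 6 to 7; IL10 at 72 h gave 3. For Ccl24 the mix with against without LPS_lo (-0.82) was called without LPS_lo + mix culture 1 (-1.34) or 3 (-1.10). No paired analysis was possible because the labels give no replicate numbers. Low values of Ccl24, Ccl17 and Chil3 rest on few reads in shallow libraries.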
